A study of Mus musculus with 6 samples.

Results

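Zbp1, Ripk1, Ripk3, Mlkl, Casp8 and Adar, the genes of the ZBP1 and RIPK necroptosis axis, were taken by name from a table of 24972 gene rows. All 6 were present, and all 6 were among the 12477 genes with a mean of at least 10 normalized counts that were tested. The table holds 6 libraries of ventricular cardiomyocyte RNA, each from 1 mouse carrying the MX1gfp reporter, so the reporter allele is shared by all mice. In 3 mice phosphate-buffered saline was injected into the peritoneum (vehicle), and in 3 mice doxorubicin at 25 mg per kg of body weight, each in 100 microlitres, with hearts collected after 48 h. The labels give neither age nor sex. The digested ventricles were filtered and the myocytes left to settle under gravity; no sort is described, so other heart cells can be present. Doxorubicin is an anthracycline that poisons topoisomerase II. From what is known of the study, it concerned how ZBP1 and interferon signalling take part in the toxicity of doxorubicin to the heart.

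ZBP1 binds nucleic acids in the left-handed Z form through its Z-alpha domains and is itself induced by interferon. Through a short RHIM motif it joins RIPK3 and RIPK1. RIPK3 can then phosphorylate MLKL, which breaches the plasma membrane in the death form called necroptosis. Caspase-8 cleaves RIPK1 and RIPK3 and so restrains necroptosis, while it can itself drive apoptosis. ADAR, the adenosine deaminase that edits double-stranded RNA, has a long isoform with its own Z-alpha domain that limits the RNA available to ZBP1. The axis has been studied in the heart in ischaemic and drug-induced injury of cardiomyocytes.

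Because several of these genes are interferon-inducible in other settings, the stretches of their promoters that hold interferon-response-like letters are shown first. RefSeq promoter windows of GRCm38.p6, each 250 bases before and 50 after a start site, were at hand for 5 of the 6 genes, in 8 windows; Zbp1 is not among them. Both strands were searched for GAAANGAAA and GAAANNGAA, letters chosen after the windows had been read. Of 32851 windows of the same length in all genes, 3.17% and 8.56% held these. The matches in 4 genes are printed 5′ to 3′ along the gene's strand, with the matched bases in capitals.

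Adar, chr3:89730738-89730767, plus strand: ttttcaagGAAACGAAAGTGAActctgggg
Casp8, chr1:58802383-58802412, plus strand: tgcgaaagcaGAAACGAAActgggagacca
Ripk1, chr13:34002859-34002888, plus strand: aacgttcccgGAAATCGAAaagcgcggaac
Ripk3, chr14:55788824-55788853, minus strand: cctcttatttGAAAGGGAAgttgtgaagtc

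Adar and Casp8 held the same letters GAAACGAAA, at base 29 after an Adar start site and at 109 bases before a Casp8 start site. In Adar they overlap a GAAANNGAA match at base 34, and the far upstream end of the same window held another. Ripk1 held a GAAANNGAA match 5 bases before one of its start sites, and Ripk3 one at base 15. The Mlkl window, the other Ripk1 window and the other Adar windows held neither. A match describes letters only.

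The libraries differed in ways that bear on every value below. Normalized counts totalled between 7217949 and 7500386 per vehicle library and between 5410780 and 6498373 per doxorubicin library. Approximate reads, from the step between neighbouring small values, came to 7691000 to 11457000 and 3656000 to 6189000, so depth and treatment cannot be told apart. The 8 cardiomyocyte markers, among them Myh6 and Tnnt2, were abundant in every library, as the cell type label requires. Their summed level was 657265 to 752331 with vehicle, 563547 in doxorubicin replicate 1, and 194592 and 164582 in replicates 2 and 3. Doxorubicin replicate 1 thus lay nearer to the vehicle libraries. In RNA from a cell mixture, fewer cells of a type and less RNA per cell cannot be told apart. Xist stood at 1558 to 2093 in vehicle replicate 3 and doxorubicin replicates 1 and 3, and 4 Y-linked genes were present in the other 3 libraries and listed at 0 in these.

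Zbp1 (chromosome 2, 173206612 to 173218959, minus strand), the sensor of the axis, had the largest difference of the 6. It was barely present with vehicle, at 7.33, 4.61 and 7.93 normalized counts in replicates 1 to 3, which rest on about 12, 5 and 9 reads. In doxorubicin replicates 1 to 3 it stood at 24.0, 56.6 and 208, or about 23, 47 and 141 reads. Every doxorubicin library was above every vehicle library, the lowest by 3.02 times the highest, and the doxorubicin libraries differed from each other more than the vehicle libraries did. The group means were 6.63 ± 1.77 and 96.3 ± 98.5 (SD, n = 3 in each), a ratio of 14.5. The difference was 3.16 on the scale of log2(value + 1), where differences of rare transcripts come out too small (SE 0.72; limma's adjusted p over all genes, by Benjamini-Hochberg, 0.0859). By size of log2 difference it ranked 34 among the 12477 genes tested. Its vehicle mean of 6.63 was below the minimum mean set for testing, which Zbp1 reached only through the doxorubicin libraries. Its entry into the tested set, and so this rank, therefore depends on the higher doxorubicin values themselves. With no minimum the log2 difference was also 3.16 (limma adjusted p 0.0984).

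Ripk1 (chromosome 13, 34002225 to 34035170, plus strand) encodes the kinase and scaffold that joins receptor complexes to both death and NF-kappaB signalling. Its normalized counts were 134, 107 and 101 with vehicle and 154, 210 and 253 with doxorubicin, replicates 1 to 3. The groups did not overlap, and doxorubicin replicate 1 was 1.16 times the highest vehicle library. The means were 114 ± 17.3 and 206 ± 49.3, with a log2 difference of 0.83 (SE 0.22, limma adjusted p 0.0859). The first part of the gene overlaps the antisense gene Serpinb6a, with 241 exon bases in common in GENCODE M21. Serpinb6a had 731 to 778 normalized counts with vehicle and 837 to 1395 with doxorubicin. The use of strand in counting is not given in the sources used here. Reads of Ripk1 and Serpinb6a therefore cannot be told apart over those bases. Gm17084, a processed pseudogene on the same strand, shares 511 exon bases with Ripk1 in GENCODE M21 and has no values here.

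Ripk3 (chromosome 14, 55784995 to 55788857, minus strand), the kinase that carries the necroptotic signal to Mlkl, did not separate the groups. It had 19.3, 26.0 and 15.8 normalized counts with vehicle and 29.7, 17.3 and 43.6 with doxorubicin. Doxorubicin replicate 2 lay inside the vehicle range, while replicates 1 and 3 lay above it. About 14 to 31 reads stand behind each value, which alone gives a counting error of 18.0% to 26.7%. The log2 difference of 0.48 (SE 0.40, limma adjusted p 0.407) was within the replicate spread. Leaving out doxorubicin replicate 3 gave 0.18, and leaving out replicate 2 gave 0.82.

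Mlkl (chromosome 8, 111311255 to 111338479, minus strand), the pseudokinase that executes necroptosis, had 42, 35.5 and 20.3 normalized counts with vehicle. In doxorubicin replicates 1 to 3 it had 49.2, 45.9 and 132. Replicate 3 stood far above the rest, while replicates 1 and 2 were just above the highest vehicle library, the lower of them by 1.09 times. That gap is less than the counting error of 16.2% on the about 38 reads of doxorubicin replicate 2. The means were 32.6 ± 11.1 and 75.8 ± 48.9, and the log2 difference was 1.08 (SE 0.46, limma adjusted p 0.137). Without doxorubicin replicate 3 it was 0.59.

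Casp8 (chromosome 1, 58795233 to 58847503, plus strand) encodes the protease that restrains necroptosis. It stood at 119, 112 and 99.0 normalized counts with vehicle and at 122, 145 and 181 with doxorubicin. The groups touch: the lowest doxorubicin library was 1.02 times the highest vehicle library, less than the counting error of 9.28% on the about 116 reads of the former. The log2 difference was 0.42 (SE 0.19, limma adjusted p 0.156), and 0.27 without doxorubicin replicate 3.

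Adar (chromosome 3, 89714469 to 89753455, plus strand) is the RNA-editing counterpart of Zbp1. It had 234, 205 and 211 normalized counts with vehicle and 289, 327 and 499 with doxorubicin. The vehicle values lay close together, and every doxorubicin value was above them, the lowest by 1.23 times. The means were 217 ± 15.4 and 372 ± 112, with a log2 difference of 0.74 (SE 0.22, limma adjusted p 0.0859). A value per gene does not separate the interferon-inducible long isoform from the constitutive short isoform. Chrnb2, an antisense neighbour that shares 1365 exon bases in GENCODE M21, was at 0.00 to 7.38 normalized counts in the 6 libraries.

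**Figure D1:**
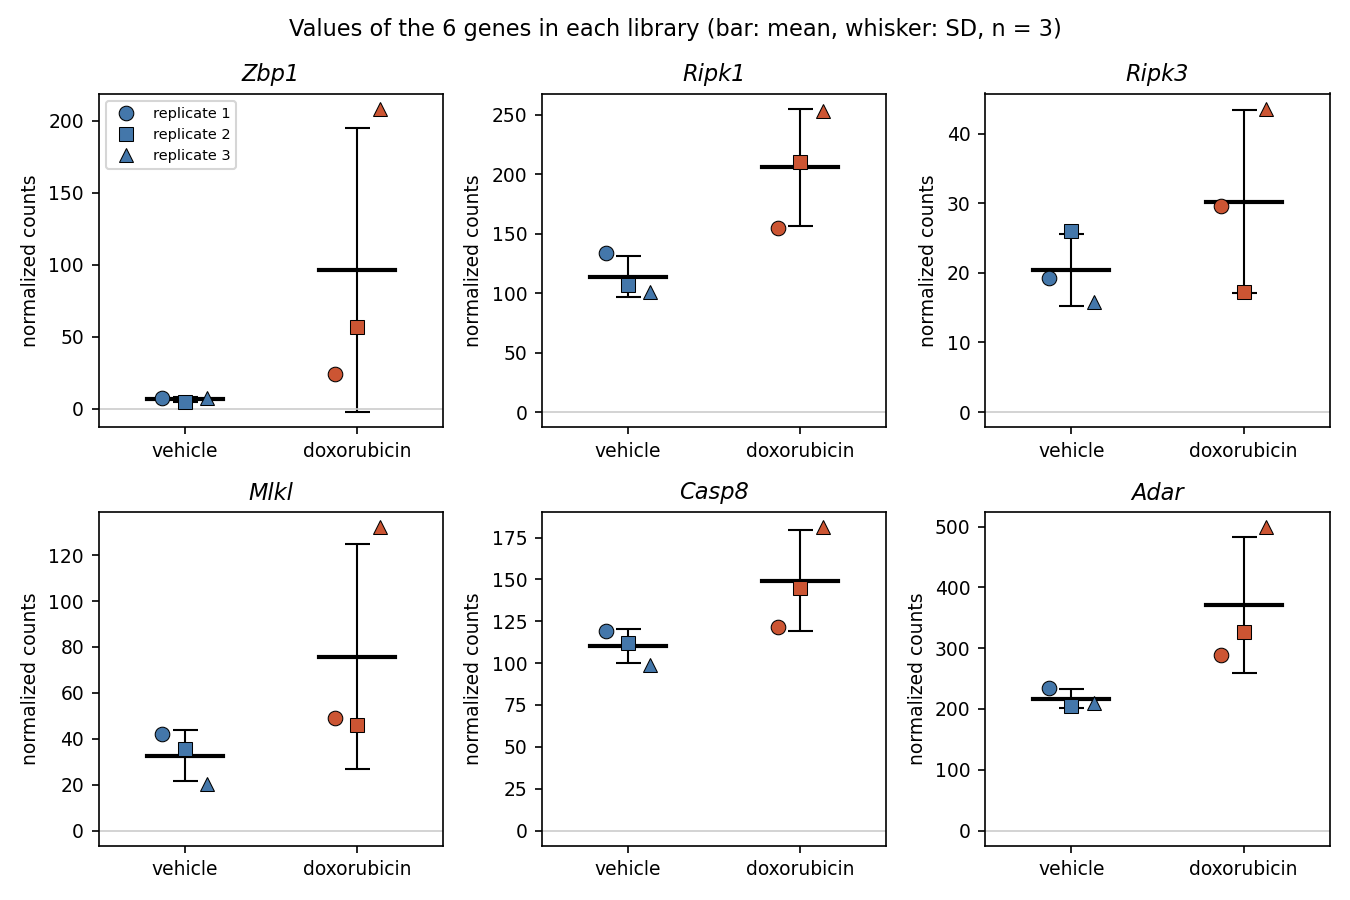
Normalized counts (vertical axes, linear, each panel with its own range) of the 6 genes in the vehicle and doxorubicin libraries; symbols are replicates, thick bars means and whiskers SD (n = 3). Zbp1 runs from 4.61 to 7.93 with vehicle and from 24.0 to 208 with doxorubicin, and in Ripk3 alone the groups overlap.

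As a set, 0 of the 6 genes passed an adjusted p under 0.05 in limma, where 0.0% of all genes were called higher and 0.0% lower. Zbp1, Ripk1, Mlkl and Adar, 4 of the 6, had an unadjusted p under 0.05, beside 16.7% of all tested genes that did so with a higher level. In 5 of the 6 every doxorubicin library was above every vehicle library, as in 19.2% of all genes tested. For Mlkl and Casp8 the gap was within the counting error given above. All 6 log2 differences were positive, as were 49.6% of all genes while 50.4% were not; the median was 0.78 for the 6 and -0.0046 for all genes. At an adjusted p under 0.10, Zbp1, Ripk1 and Adar passed, beside 11.1% of genes higher and 13.1% lower. Leaving out doxorubicin replicate 1, the library nearest to vehicle, limma called Zbp1, Ripk1, Casp8 and Adar higher, 4 of the 6, beside 19.4% of all genes higher and 21.8% lower. With limma's weights for each library it called Zbp1, Ripk1 and Adar, beside 15.7% higher and 18.6% lower. Without replicate 1, Mlkl had an adjusted p of 0.0584 in limma.

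The 6 genes did not follow 1 pattern over the doxorubicin mice. The log2 changes from the vehicle mean in doxorubicin replicate 1 were 1.74 for Zbp1, 0.64 for Mlkl, 0.55 for Ripk3, 0.45 for Ripk1, 0.41 for Adar and 0.15 for Casp8. Zbp1 was therefore the gene furthest from vehicle even in the mildest library, outside the 5th to 95th percentile of tested genes, -0.52 to 0.74. In replicate 2 Zbp1 was at 2.95 and Ripk1 at 0.89, Ripk3 was at -0.20, and the other 3 lay between 0.40 and 0.59. In replicate 3 Zbp1 was at 4.81 and Mlkl at 2.05, both above the 95th percentile of 1.80, and the remaining genes lay between 0.72 and 1.20.

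**Figure D2:**
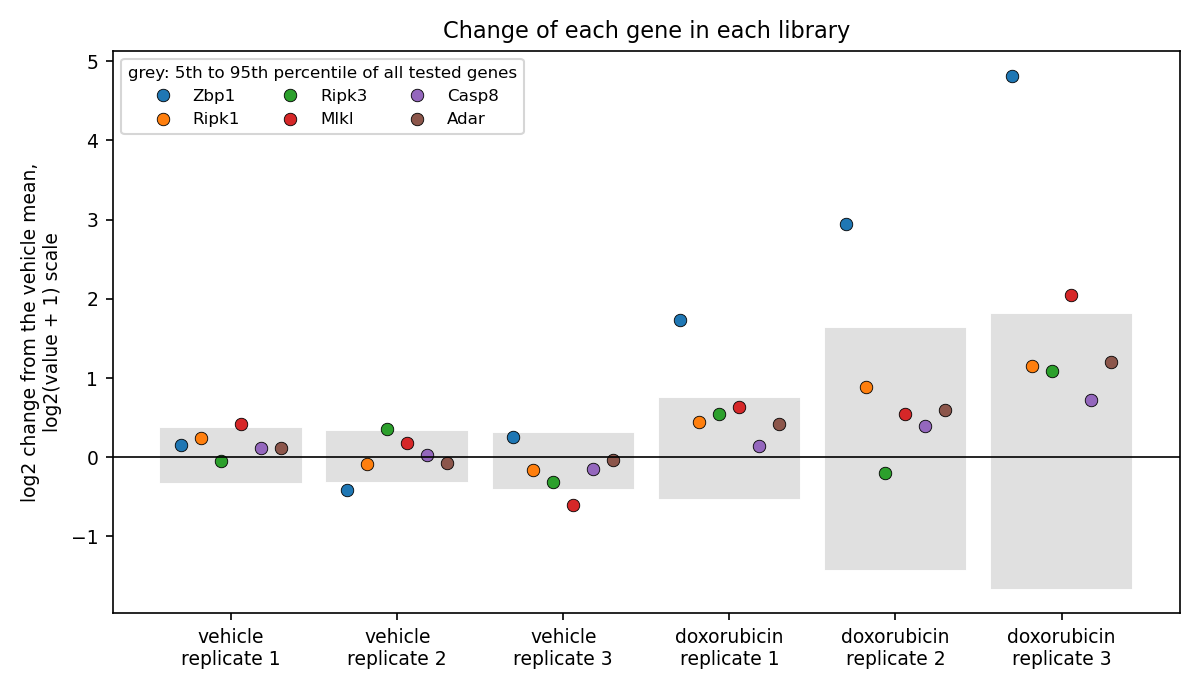
Change from the vehicle mean on the log2(value + 1) scale (vertical axis) of the 6 genes in each library; grey boxes span the 5th to 95th percentile of all tested genes. Zbp1 lies above the box in all 3 doxorubicin libraries (1.74, 2.95 and 4.81), and Mlkl in replicate 3 (2.05).

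The counts of Zbp1 relative to other genes of the axis differed accordingly, which largely restates the Zbp1 values above. The log2 level of Zbp1 minus that of Adar, whose isoforms are not separated here, was -4.82, -5.20 and -4.57 with vehicle. With doxorubicin it was -3.54, -2.51 and -1.26 in replicates 1 to 3, so every doxorubicin library was above every vehicle library. Zbp1 minus Ripk3 was between -2.26 and -0.91 with vehicle and at -0.30, 1.65 and 2.23 with doxorubicin. The downstream pair Ripk3 minus Ripk1 overlapped, at -2.73 to -2.0 with vehicle and -3.53 to -2.34 with doxorubicin. These log2 ratios of counts are not per length and serve only to compare libraries.

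Levels between genes were compared as normalized counts per kilobase of the longest coding transcript in GENCODE M21. With vehicle the order was Zbp1 3.33 ± 0.89, Ripk3 10.4 ± 2.62, Mlkl 16.3 ± 5.55, Ripk1 17.6 ± 2.67, Adar 36.7 ± 2.6 and Casp8 42.6 ± 3.94 (SD, n = 3). Zbp1 was below every other gene in all 3 vehicle libraries. The ranges over libraries of neighbours from Ripk3 on overlapped, except between Ripk1 and Adar. With doxorubicin the order was Ripk3 15.4 ± 6.70, Ripk1 31.8 ± 7.62, Mlkl 37.8 ± 24.4, Zbp1 48.4 ± 49.5, Casp8 57.8 ± 11.6 and Adar 62.9 ± 19.0. From Ripk1 on, the ranges of neighbours overlapped. Zbp1 reached 105 per kilobase in doxorubicin replicate 3, above Adar at 84.5, but 12 in replicate 1. The choice of transcript matters: with the 3266 bases of Ripk1-201 in place of the longest 6472, Ripk1 was at 34.8 with vehicle, and with the 3753 bases of Adar-201 in place of 5909, Adar was at 57.8, above Casp8.

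By likeness over the 6 libraries, the genes closest to Zbp1 on the log2 scale were Tbxas1 (Pearson r 0.998), Mfsd1 (0.997), Abcc3 (0.995), Irf7 (0.995) and 4931406P16Rik (0.995). Irf7, an interferon-inducible transcription factor that amplifies the interferon response, had 108, 96.1 and 113 normalized counts with vehicle and 206, 391 and 1090 with doxorubicin. The points share libraries that fall into 2 groups, and 522 of 12469 other genes reached an r of 0.95 with Zbp1, so these names describe a shape and not a relation. Among the closest to Mlkl were Cwc22 (0.998) and Thsd1 (0.995), and closest to Ripk3 were Gm17757 (0.996), Syne2 (0.996) and Slc28a2 (0.991). Within the axis, Adar was the gene most like Zbp1 (r 0.987) and Ripk3 the least (0.581).

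Other genes of the pathway were read from a list of 72 genes in 7 roles, of which 71 were tested. In limma 0 of the 71 passed an adjusted p under 0.05, and at an unadjusted p under 0.05 there were 18 higher and 8 lower, where 16.7% and 19.3% of all genes were. Without overlap of the groups, 21 were higher and 11 lower, where 19.2% and 22.6% of all genes were. The median log2 difference was 0.32. Without doxorubicin replicate 1, 32 of the 71 passed in either direction, beside 19.4% of all genes higher and 21.8% lower, a share near that background.

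Among the ligands and receptors upstream, 11 of 12 had positive log2 differences, beside 49.6% of all genes, with a median of 0.50. Fas, a death receptor that signals through Casp8, had 102 ± 12.7 and 383 ± 165 normalized counts (log2 difference 1.80, SE 0.34, limma adjusted p 0.0859). Tnfrsf1a, the TNF receptor that recruits Ripk1, had 470.2 ± 68.8 and 943 ± 225 (0.98, SE 0.22, adjusted p 0.0859). The exception was Ifngr2, a chain of the interferon-gamma receptor, at 1808 ± 88.9 and 735 ± 496 (-1.51). The groups of these 3 genes did not overlap. In the whole role, 3 of 12 were higher and 1 lower without overlap, beside 19.2% and 22.6% of all genes.

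The adaptors of the Casp8 complex went opposite ways. Fadd, which brings Casp8 to death receptors and to Ripk1, was at 173, 171 and 174 normalized counts with vehicle and 133, 109 and 124 with doxorubicin, a log2 difference of -0.50 (SE 0.15, limma adjusted p 0.0859). Cflar, whose product cFLIP pairs with Casp8 and holds both apoptosis and necroptosis in check, was at 345, 369 and 349 with vehicle and 531, 644 and 775 with doxorubicin (0.86, SE 0.17, adjusted p 0.0859). Neither gene's groups overlapped. With each library scaled to the same total, Fadd was at -0.20 (limma adjusted p 0.369).

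The 22 ubiquitin and kinase checkpoints on Ripk1 and Ripk3 had a median log2 difference of -0.048, with 10 positive and 12 negative. Without overlap of the groups, 7 were higher and 2 lower, beside 19.2% and 22.6% of all genes. Birc3, a ubiquitin ligase of Ripk1, was at 1.14 (SE 0.34) and Tnfaip3, the ubiquitin-editing enzyme A20, at 0.88 (SE 0.20), each with a limma adjusted p of 0.0859 and no overlap. Ikbke, a kinase of the interferon pathway, had the largest difference of the list at 2.57 (SE 0.99, adjusted p 0.112). It rested on doxorubicin replicate 3, with 102 normalized counts against 8.44 and 12 in replicates 1 and 2. With a vehicle mean of 3.47, Ikbke too reached the minimum mean of 10 only through the doxorubicin libraries. Mapkapk2, a kinase that phosphorylates Ripk1, was lowest at -0.55 (SE 0.30, adjusted p 0.224), with groups that overlapped; it was at -0.20 without doxorubicin replicate 3 and -0.24 with equal totals.

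Of 7 partners and effectors of the necrosome, 5 were negative, all 5 without overlap, and the median was -0.36. Of all genes, 50.4% were not positive and 22.6% were lower without overlap, and the group itself was not tested. Camk2d, a calcium-dependent kinase of cardiomyocytes that RIPK3 can activate, was at 1079, 1245 and 1588 normalized counts with vehicle and 1002, 581 and 619 with doxorubicin (-0.85, SE 0.25, limma adjusted p 0.0859; -0.55 with equal totals). It was lowest in the same pair of libraries, doxorubicin replicates 2 and 3, as the cardiomyocyte marker sums, whose part in it was not tested. The 6 membrane repair genes had a median of 0.0010, from Flot1 at -0.47 to Sdcbp at 0.36, or -0.17 and 0.66 with equal totals.

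Of 9 genes of nucleic acid sensing, 3 were higher and 1 lower without overlap, beside 19.2% and 22.6% of all genes, and 5 overlapped. Cgas, the DNA sensor, had 16.7, 12.5 and 13.3 normalized counts with vehicle and 27.3, 13.3 and 26.1 with doxorubicin, with groups that overlapped (log2 difference 0.56, SE 0.39, limma adjusted p 0.322). Sting1, its adaptor, was at 0.43 (adjusted p 0.25) and Eif2ak2, the RNA-dependent kinase PKR, at 0.47 (0.23), both with overlap. Sting1 was at 0.17 without vehicle replicate 3, Eif2ak2 at 0.18 without doxorubicin replicate 3, and Cgas at 0.88 without doxorubicin replicate 2. Ifih1, a sensor of long double-stranded RNA, was at 0.90 and its adaptor Mavs at -0.94, each without overlap and with an adjusted p of 0.0859. In the interferon signalling genes upstream of Zbp1, 7 of 8 were positive, beside 49.6% of all genes, with a median of 0.60. Irf9, a subunit of the transcription factor complex that interferon activates, was at 0.94 (SE 0.20, limma adjusted p 0.0859), and each doxorubicin library was above all vehicle libraries.

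**Figure D3:**
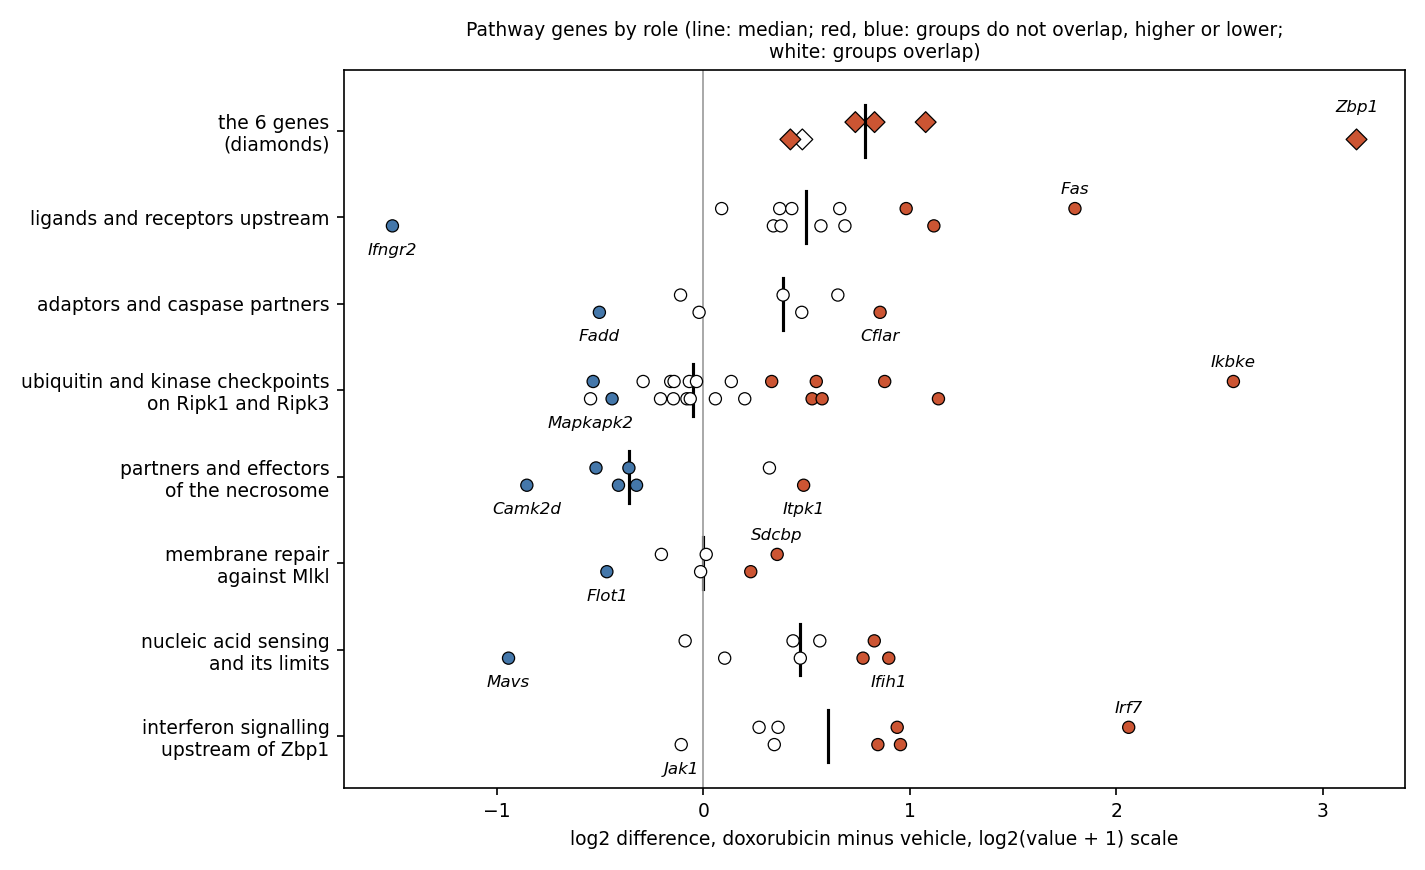
Log2 differences, doxorubicin minus vehicle (horizontal axis), of the 6 genes (diamonds) and of 71 tested pathway genes (circles) by role; lines are medians, filled symbols are genes whose groups do not overlap, and the extremes of each role are named. Zbp1 (3.16) lies beyond every pathway gene, the nearest being Ikbke (2.57).

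Markers of some other cell types were higher with doxorubicin, and those of others were not. The 10 macrophage markers, which include Adgre1, Lyz2 and Csf1r, were all higher in mean log2 level with doxorubicin. Beside 19.2% of all genes, 9 of these markers were higher without overlap. Their sum was 2176 to 2258 with vehicle and 3476, 6238 and 15030 in doxorubicin replicates 1 to 3, so it stood highest in replicate 3, where all 6 genes of the axis were highest too. The sum of the 6 neutrophil markers was 10.5 to 21.7 with vehicle and 55.0, 563 and 419 with doxorubicin, with Retnlg and Ly6g listed at 0 in every vehicle library. Endothelial marker sums were 12334 to 15905 and 19671 to 26776, and fibroblast sums, which just overlap, 5581 to 7595 and 7593 to 22269. In each of these lists 5 markers had positive log2 differences and 1, Kdr or Col3a1, a negative one. Mural sums overlapped, at 5614 to 10415 and 7293 to 10675. The erythroid sum was 1173 to 1999 with vehicle and 8852, 250 and 421 in doxorubicin replicates 1 to 3. The 8 lymphocyte markers summed to 9.63 to 70.2 in all libraries, with no separation of the groups. Macrophages, neutrophils and endothelial cells can themselves express genes of this axis, and how much of each difference they carry was not tested.

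The macrophage, endothelial and neutrophil marker sums were higher in every doxorubicin library, so a gene that rose less comes out lower against them. How many of all genes do so was not counted. Set against the macrophage marker sum, the 6 genes differed. Zbp1 per 1000 macrophage marker counts was 3.26, 2.04 and 3.65 with vehicle and 6.89, 9.07 and 13.9 with doxorubicin, so the groups did not overlap, and the same held against 9 of the 10 markers taken one at a time. For Ripk1, Casp8 and Adar the ratio to the sum was lower in every doxorubicin library, but against single markers it was lower without overlap for only 3 of 10 with Ripk1, 3 of 10 with Adar and 7 of 10 with Casp8. Adar was at 104, 91.0 and 96.8 with vehicle and at 83.1, 52.4 and 33.2 with doxorubicin. For Ripk3 and Mlkl the groups overlapped, with Mlkl at 9.33 to 18.6 and at 7.36 to 14.2. Against the endothelial sum, Zbp1 was at 0.29 to 0.64 with vehicle and 1.22, 2.71 and 7.79 with doxorubicin, higher against all 6 markers; Ripk1, Ripk3, Mlkl and Adar overlapped, and Casp8 was lower, at 7.04 to 8.03 and 6.18 to 6.95. Against the fibroblast sum only Zbp1 separated the groups, and against the cardiomyocyte sum all 6 genes were higher in every doxorubicin library. The cardiomyocyte sum was itself lower in every doxorubicin library, so a gene with no change also comes out higher. Against the neutrophil sum, which was only 10.5 to 21.7 with vehicle, Zbp1 overlapped, at 212 to 697 and 101 to 498. Ripk1, Ripk3, Mlkl, Casp8 and Adar were lower against it in every doxorubicin library. Each of these was lower without overlap against 3 of 4 single neutrophil markers. Such ratios assume nothing about which cell made the transcript, and they carry no test.

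**Figure D4:**
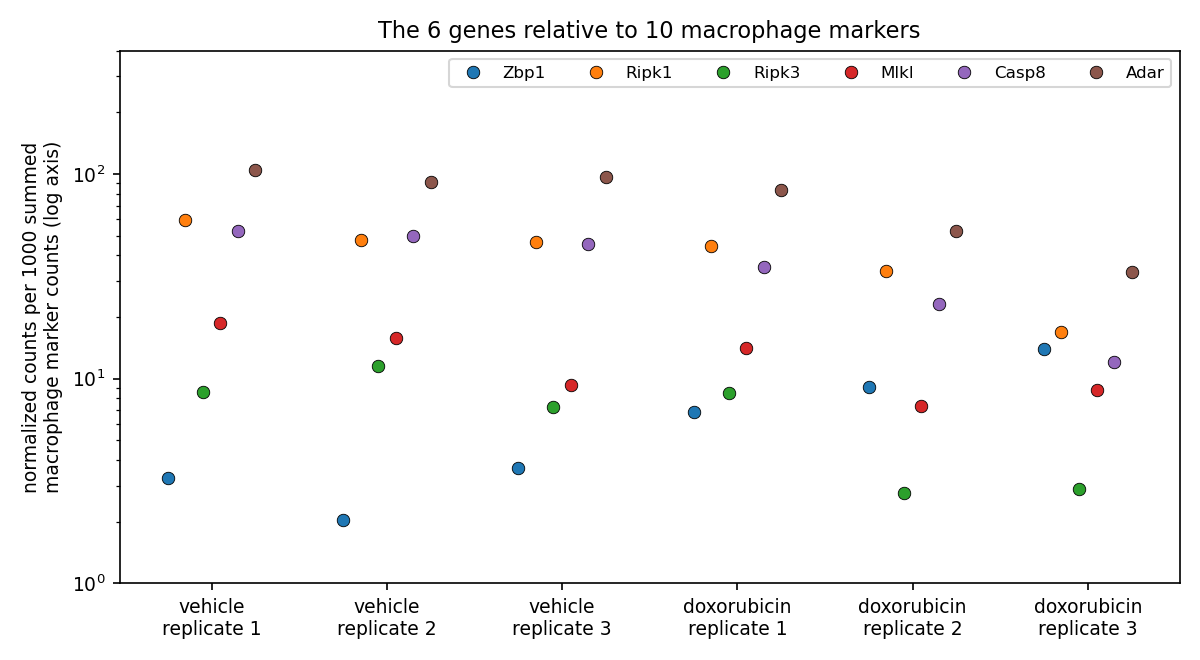
Normalized counts of the 6 genes per 1000 summed counts of 10 macrophage markers (vertical axis, logarithmic) in each library. Zbp1 lies above its vehicle values of 2.04 to 3.65 in all 3 doxorubicin libraries, while Adar is at 91.0 or more with vehicle and 83.1 or less with doxorubicin, a separation that single markers give in 3 of 10.

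Within the classes of library set by Xist or Y-linked transcripts, values can be given without a test, since each class holds 1 library of 1 group. The log2 difference of Zbp1 was 3.02 in the Xist class and 3.07 in the Y-linked class. Ripk1 (0.96 and 0.81), Adar (0.85 and 0.57) and Casp8 (0.58 and 0.33) were positive in both. Mlkl was at 1.94 and 0.25, and Ripk3 at 1.14 and -0.36, so the 2 genes at the necroptotic end of the axis were the least alike between classes. The Y-linked class holds doxorubicin replicate 2 alone, and class and mouse cannot be told apart.

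**Figure D5:**
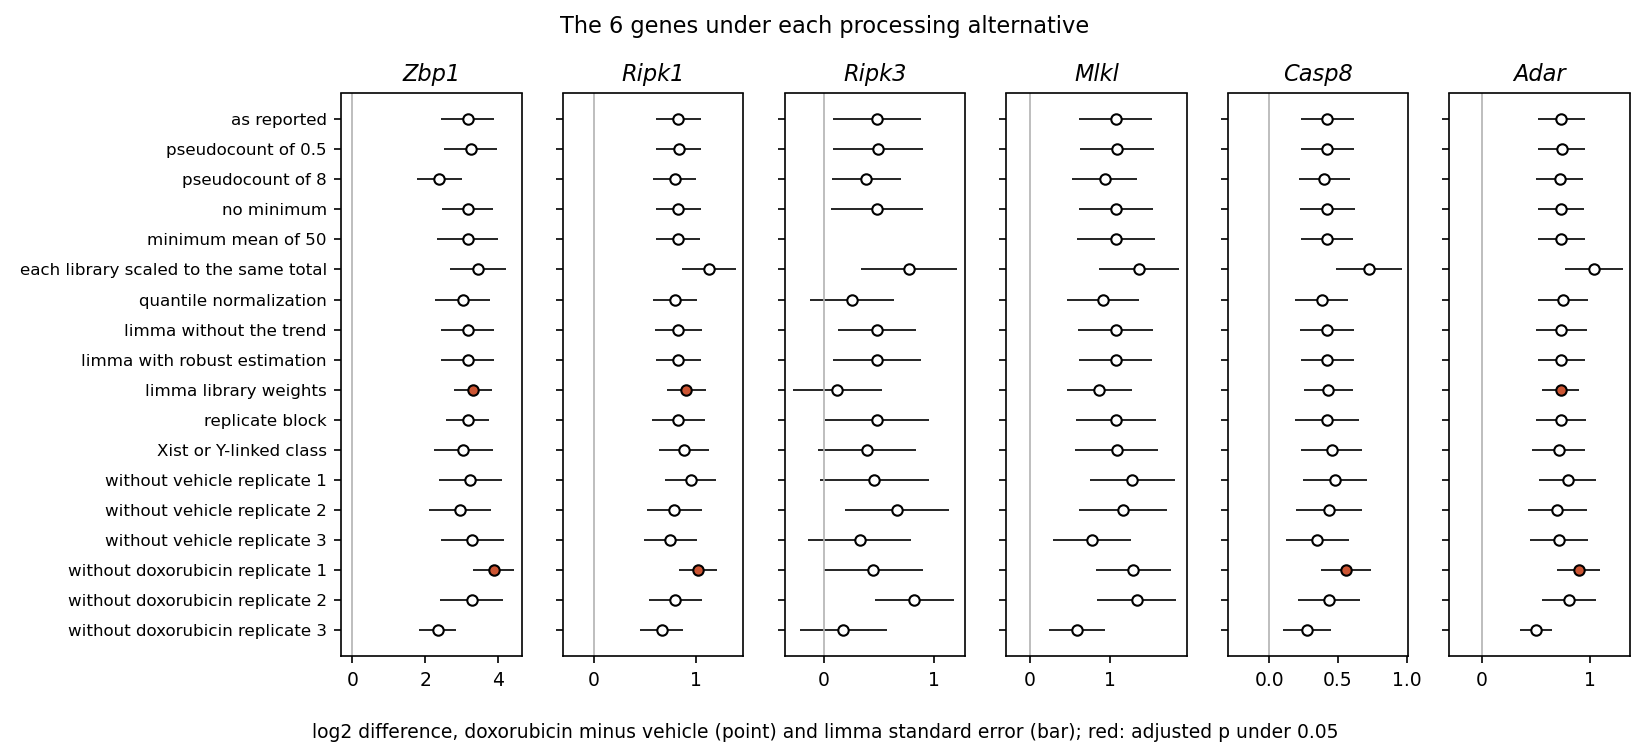
Log2 difference, doxorubicin minus vehicle (horizontal axes, each with its own range), of the 6 genes under each way of processing (rows); bars are limma standard errors and red points have an adjusted p under 0.05. All points lie above 0, and red points appear with library weights and without doxorubicin replicate 1; Ripk3 is missing at a minimum mean of 50.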

How the data were processed

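The authors deposited normalized counts, treated here as a non-negative signal per gene and library. Per the labels and the series' design text, reads were aligned with STAR in BaseSpace RNAseq Alignment 2.0.2 to mm10 with RefSeq genes, followed by BaseSpace RNA-seq Differential Expression 1.0.1; the submitters' processing notes also name STAR 2.6.1a and Salmon. How reads were counted and scaled, and whether by strand, is not stated in these sources. Low values lie near whole multiples of a step (80.3% to 92.4% within 0.1 step), too few for whole reads, so count tests were not used; the step gave approximate reads.

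Log2 was taken after adding a pseudocount of 1. Genes averaging at least 10 were tested in limma 3.58.1 (R 4.3.3) with a mean-dependent prior variance, two-sided, with Benjamini-Hochberg adjustment over all tested genes and a threshold of 0.05. The test was checked on simulated data with independent noise for each gene and library. Differences shared across a whole library were not simulated, so the check does not cover them. With 3 mice against 3 an exact permutation test cannot go below 0.1. Coordinates are from RefSeq GRCm38.p6 and count from 1. The 6 genes and the lists were chosen with earlier results of these data known.

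Pathway genes were named by a rule: the highest and lowest of each role and 12 fixed genes. Some genes that the rules name are not reported here. Figures used matplotlib 3.10.9.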

Additional observations from a re-analysis of the deposited data

How the results depend on the processing

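Pseudocounts of 0.5 and 8, no minimum, a minimum mean of 50, equal totals, quantile normalization, limma without the trend or with robust estimation, the replicate block and the Xist or Y-linked class each left 0 genes past the threshold. With the replicate block 0 of the 6 genes passed, and Zbp1 had a log2 difference of 3.16 (limma adjusted p 0.115). The labels do not say that equal numbers mark a shared day or litter, and the deviations of same-numbered libraries from their group means correlated at -0.128, 0.033 and -0.093, so the mice were not treated as pairs. With equal totals the all-gene median was 0.29.

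With limma's library weights, which gave doxorubicin replicate 1 a weight of 0.277, 1954 genes were higher and 2318 lower, with 3 of the 6 genes and 24 of the pathway list; Zbp1 was then at 3.31, Ripk1 at 0.91 and Adar at 0.73. A threshold of 0.10 gave 1383 higher, 1639 lower, 3 of the 6 and 18 of the list. Leaving out each library gave 0 to 2421 higher, 0 to 2715 lower, 0 to 4 of the 6 and 0 to 32 of the list, with every call made without doxorubicin replicate 1. The log2 differences then ran from 2.34 to 3.88 for Zbp1, 0.67 to 1.02 for Ripk1, 0.18 to 0.82 for Ripk3, 0.59 to 1.34 for Mlkl, 0.27 to 0.56 for Casp8 and 0.50 to 0.90 for Adar. Of the 6 genes none reversed under these settings; Ripk3 was at 0.12 with library weights. Jak1, at -0.11, reversed to 0.20 with equal totals, a rescaling that also moved the all-gene median from -0.0046 to 0.29. It was at 0.10 with quantile normalization, where the cause was not tested. The alternatives for overlap, pathway genes and marker ratios were added after seeing the data. Depth limits Zbp1 with vehicle and Ripk3 throughout.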
